A study of Homo sapiens with 12 samples.

Results

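WNT ligands, their receptors, the proteins that antagonise them and the feedback genes of the pathway were followed in HEK293T lines that express different forms of EZH2. The genes were chosen by symbol: every row of the count table named for a WNT ligand, a Frizzled receptor, a secreted Frizzled-related protein, a Dickkopf protein, an R-spondin, LRP5 or LRP6, ROR1, ROR2 or RYK, PORCN, WIF1, APCDD1, RNF43, ZNRF3, NKD1, NKD2, AXIN1, AXIN2, APC, CTNNB1, LEF1 or a TCF7 factor. These rules found 45 of the 14438 genes in the table, and the rule reads symbols only, although it was written with earlier results of these data known. In GENCODE v44, 61 protein-coding symbols match, of which 16 had no row in the table and were not analysed here (WNT1, WNT2, WNT6, WNT7A, WNT7B, WNT8A, WNT9B, WNT10A, DKK2, DKK4, SFRP4, SFRP5 and RSPO1, RSPO2, RSPO3 and RSPO4).

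The cells were HEK293T, which derive from human embryonic kidney, and RNA-Seq was run on 3 replicates of each of 4 lines. Each line had been infected with lentivirus carrying EZH2 WT, the gain-of-function (GOF) mutants EZH2 Y641F or EZH2 A677G, or the loss-of-function (LOF) double mutant EZH2 H689A/F667I, and was then selected with blasticidin. The controls therefore carry introduced EZH2 too, and all lines keep the EZH2 of the cell. Selection aimed at populations grown from single cells, so that a line and its mutation cannot be told apart where a line is 1 clone. EZH2 is the catalytic subunit of PRC2, which methylates histone H3 at K27, a mark of silenced genes. The comparisons ask whether transcripts of the WNT pathway differ between each mutant line and the line with EZH2 WT.

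As background, WNT proteins are secreted lipid-modified ligands that bind Frizzled receptors together with the co-receptors LRP5 and LRP6. In their absence a destruction complex built on AXIN1 and APC marks β-catenin, the product of CTNNB1, for degradation, and in their presence β-catenin accumulates and acts with LEF1 and the TCF factors on target genes. Other WNT ligands act through ROR1, ROR2 and RYK on cell polarity and movement without β-catenin. The pathway is held in check by secreted antagonists that bind the ligands or LRP6, and by feedback genes that the pathway itself induces. Several of its genes, among them SFRP and DKK genes, have CG-rich promoters that are known targets of Polycomb silencing, and the pathway is used widely in kidney development.

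The promoter sequences of 3 of the members that were lower in both GOF lines are shown because the enzyme that differs between the lines acts on chromatin. They are the 250 bases before the gene start in the RefSeq table on GRCh38.p14, written 5′ to 3′ on the strand of the gene, with each CG dinucleotide in capitals. NKD2 is at chr5:1008552-1008801 on the plus strand, ROR1 at chr1:63773767-63774016 on the plus strand, and SFRP2 at chr4:153789084-153789333 on the minus strand.
NKD2: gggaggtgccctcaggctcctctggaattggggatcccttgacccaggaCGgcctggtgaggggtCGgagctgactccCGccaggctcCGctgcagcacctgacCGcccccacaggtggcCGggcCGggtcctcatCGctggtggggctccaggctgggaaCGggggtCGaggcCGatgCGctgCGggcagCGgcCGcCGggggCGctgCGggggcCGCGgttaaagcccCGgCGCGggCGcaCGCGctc
ROR1: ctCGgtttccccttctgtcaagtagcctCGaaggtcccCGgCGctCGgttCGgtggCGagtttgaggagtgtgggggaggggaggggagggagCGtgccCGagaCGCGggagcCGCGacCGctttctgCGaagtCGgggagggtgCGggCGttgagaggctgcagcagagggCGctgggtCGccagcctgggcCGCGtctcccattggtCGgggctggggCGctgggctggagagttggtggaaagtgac
SFRP2: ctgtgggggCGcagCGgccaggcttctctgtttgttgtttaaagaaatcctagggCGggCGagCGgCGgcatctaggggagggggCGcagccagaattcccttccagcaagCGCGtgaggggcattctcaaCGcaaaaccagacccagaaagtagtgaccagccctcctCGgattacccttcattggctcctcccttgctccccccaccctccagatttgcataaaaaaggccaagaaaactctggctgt
These windows hold 26 CG dinucleotides in NKD2, 24 in ROR1 and 11 in SFRP2, where the median over the 10435 tested genes with a window was 21. Of the 45 members, 32 (71.1%) had a window in the table. This share is under 80%, so that a comparison of promoters over the members as a set would be void. The values over all genes given here and below are for reference only, and no conclusion on the members is drawn from them. FZD10, NKD1, SFRP1 and WNT11, also lower in both GOF lines, had no window. The LEF1 window overlaps an annotated untranslated region and is not shown.

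A search of these windows on both strands for CTTTGAA and CTTTGAT, letters that LEF1 and the TCF factors are known to bind, found 1 match in the 32 members. It lies in DKK1, a secreted antagonist that β-catenin is known to induce, 95 bases before the gene start, and is shown in capitals within chr10:52314171-52314207 on the plus strand.
DKK1: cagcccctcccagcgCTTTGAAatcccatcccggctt
One or both words were in 6.03% of all 27305 windows and in 3.47% of those of tested genes. A match is a description of letters and not a binding site.

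Total counts per sample ranged from 32137700 to 44562413, and all 45 members had counts in every sample, with a smallest count of 2. EZH2 transcript, in which introduced and endogenous copies are counted together, had a mean of 158 CPM (counts scaled to library size, TMM-normalised) in EZH2 WT, 218 in Y641F, 173 in A677G and 208 in the LOF line. The counts do not show which form of EZH2 was introduced. Of 8 markers expected in HEK293T all had rows, and PAX2 was at 0 in all A677G replicates. Their summed level was 671 to 694 CPM in EZH2 WT, 537 to 576 in Y641F, 513 to 544 in A677G and 611 to 623 in the LOF line. Replicate 1 of Y641F stood apart from its line in the principal components, at 5.60 on the first component where replicates 2 and 3 were at 17.7 and 17.1. Calls against EZH2 WT that turn on that library are given with and without it, and the part of the marker levels in the results was not tested.

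Levels between genes are compared here as CPM per kb of the canonical transcript, averaged over all samples. CTNNB1 was the most abundant member at 224 CPM per kb, and AXIN1 and APC, its partners in the destruction complex, were at 17.5 and 10.4. Among the 15 receptors and co-receptors, RYK was highest at 27.6 CPM per kb and FZD10 lowest at 1.47. Among the 11 ligands with a row, WNT5A, a ligand best known from signalling without β-catenin, was highest at 8.30 CPM per kb, and WNT2B lowest at 0.0836. The antagonists ranged from 3.22 CPM per kb in SFRP1 to 0.222 in WIF1, and the feedback genes from 7.98 in ZNRF3 to 0.602 in NKD1. LEF1 stood at 8.62 CPM per kb, above TCF7 at 2.19, and TCF7L1 was the lowest of the TCF factors at 0.455. PORCN, the enzyme that attaches the lipid to WNT proteins, stood at 3.70 CPM per kb. WNT9A and WNT3A lie next to each other on chromosome 1, 59066 bases apart, and no other pair of members was that close.

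**Figure D1:**
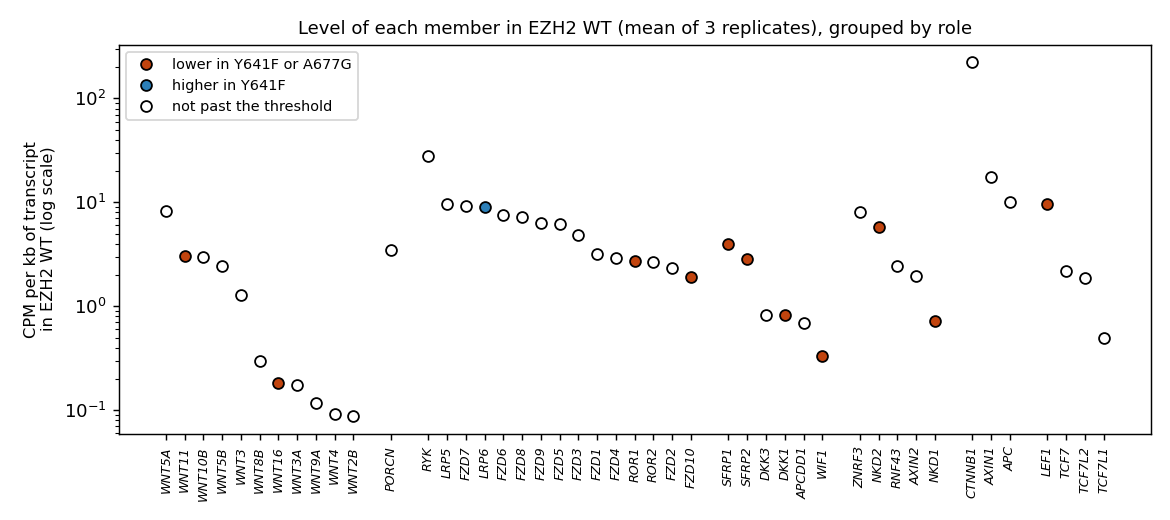
Level of each of the 45 members in EZH2 WT, as the mean CPM per kb of transcript over 3 replicates on a log scale, grouped by role. Filled points mark members lower in Y641F or A677G (red) or higher in Y641F (blue), and CTNNB1 lies above all other members.

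Against EZH2 WT, the antagonists SFRP1 and SFRP2, both NKD feedback genes, the receptors FZD10 and ROR1, the ligand WNT11 and the factor LEF1 were lower in both GOF lines, and the antagonists DKK1 and WIF1 and the ligand WNT16 in Y641F, while the destruction complex, PORCN, AXIN2, RNF43 and ZNRF3 did not pass the test in any line. In Y641F, 11 of the 45 members (24.4%) were lower and 1 (2.22%) was higher, where 5.59% of the 14263 genes tested were lower and 2.09% higher. In A677G, 8 members (17.8%) were lower and 0 higher, where 6.48% of all genes tested were lower and 2.07% higher. In the LOF line 0 members were lower and 0 higher by edgeR's quasi-likelihood test, where 0.161% of all genes were lower and 0.14% higher. At an unadjusted p under 0.05 the LOF line had 3 members (6.67%). The share of all genes at that cutoff was not counted, and no conclusion is drawn from this number. In the LOF line edgeR's exact test and DESeq2 each called 1 (SFRP2), and 33 members passed the test in no line. The median log2 fold change over the members was -0.10 in Y641F, -0.09 in A677G and -0.03 in the LOF line, against 0.00 over all genes tested in each.

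The 3 comparisons share the EZH2 WT samples, so that a WT replicate that is high or low for a gene moves all of them. Without WT replicate 1, and likewise without WT replicate 2, the count of lower members in Y641F was 7 in place of 11. Without replicate 1 of Y641F it was 9, with 0 higher. The count in A677G was between 8 and 9 whichever replicate was left out. In bulk RNA, fewer cells with a transcript and less of it per cell cannot be told apart.

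All 3 replicates lay below all 3 of EZH2 WT for 13 members (28.9%) in Y641F, where this held for 11.7% of all genes, and above for 3, where it held for 9.28%. In A677G the counts were 12 below (26.7%) and 3 above, where 14.7% and 12.5% of all genes did so. In the LOF line they were 4 below and 2 above, where 7.14% and 7.89% of all genes did so.

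**Figure D2:**
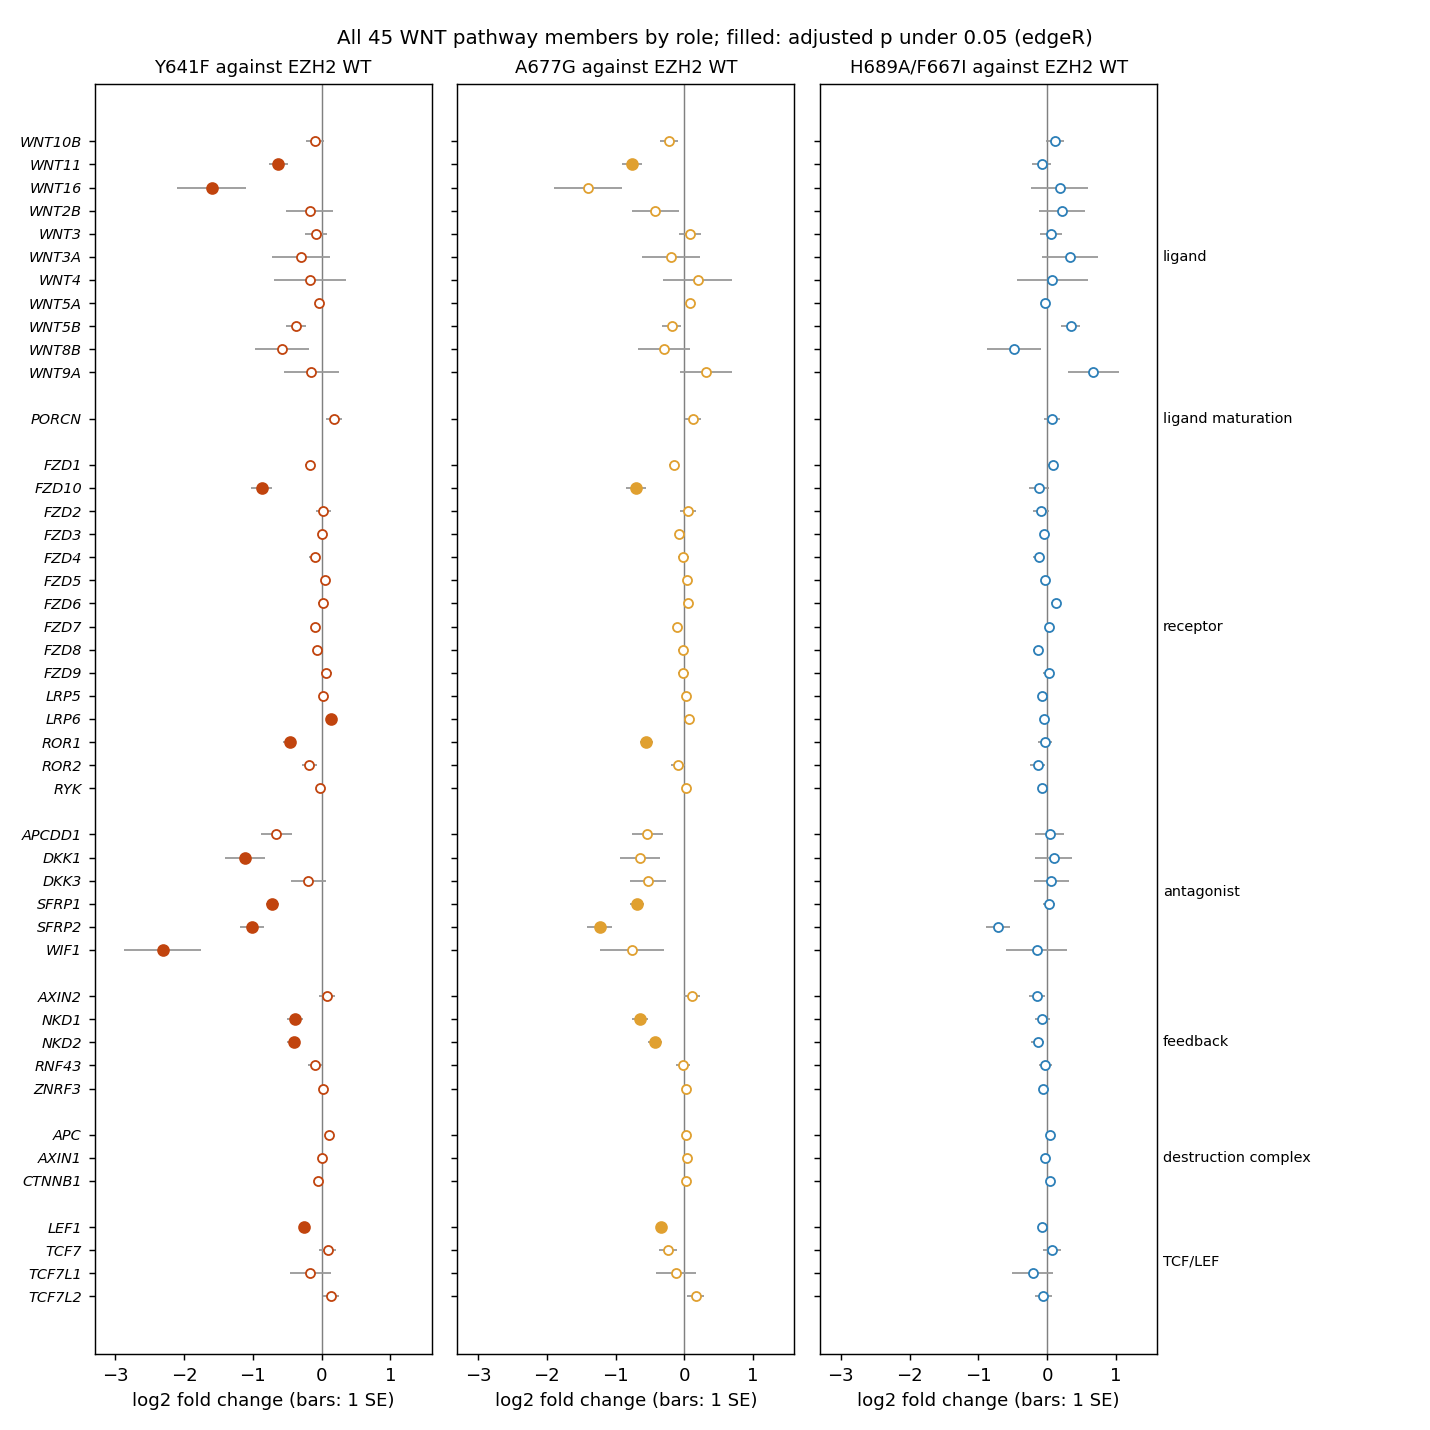
Log2 fold change against EZH2 WT of all 45 members in Y641F, A677G and H689A/F667I, grouped by role, with bars of 1 SE from edgeR. Filled points have an adjusted p under 0.05: 12 in Y641F, 8 in A677G and 0 in H689A/F667I.

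Among the roles, the antagonists had the most lower members in Y641F. Of 6 with a row, 4 were lower in Y641F and 2 in A677G. SFRP1 (chr8:41261962-41309473 in GENCODE v44 on GRCh38, as all positions below), a secreted protein that binds WNT ligands through a Frizzled-like domain, stood at 17.3, 19.5 and 16.2 CPM in EZH2 WT, at 12.6, 9.45 and 10.3 in Y641F, at 11.5, 10.1 and 11.4 in A677G and at 19.2, 17.9 and 17.0 in the LOF line. Every GOF replicate lay below every WT and LOF replicate. The log2 fold change of SFRP1 was -0.72 (SE 0.0959, adjusted p = 1.52e-06) in Y641F and -0.69 (SE 0.0958, adjusted p = 3.05e-06) in A677G, to 0.609 and 0.621 times the WT level, and 0.03 (SE 0.0929, adjusted p = 0.964) in the LOF line.

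SFRP2 (chr4:153780591-153789083), a protein of the same family whose promoter is shown above, stood at 5.57, 6.06 and 5.31 CPM in EZH2 WT, at 2.88, 2.47 and 3.03 in Y641F, at 1.75, 2.26 and 3.29 in A677G and at 3.06, 3.36 and 3.97 in the LOF line. All replicates of all mutant lines lay below those of EZH2 WT. For SFRP2 the log2 fold change was -1.01 (SE 0.176, adjusted p = 1.11e-04) in Y641F and -1.23 (SE 0.179, adjusted p = 7.16e-06) in A677G, to 0.495 and 0.427 times the WT level. In the LOF line the value was -0.71 (SE 0.175, adjusted p = 0.0636), past the threshold by DESeq2 (adjusted p = 0.0319), by edgeR's exact test (adjusted p = 0.0123) and without replicate 1 of Y641F (adjusted p = 0.0378). The mean of the GOF lines was lower than the LOF line by a log2 difference of -0.41 (SE 0.159), which did not pass (adjusted p = 0.0878), and was -0.54 (adjusted p = 0.0154) without replicate 3 of A677G. Of the 8 members lower in both GOF lines against EZH2 WT, SFRP2 was the one that did not pass between the GOF and LOF lines.

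DKK1 (chr10:52314281-52318042), which blocks the co-receptor LRP6, stood at 1.24, 1.79 and 1.42 CPM in EZH2 WT, at 0.475, 0.630 and 0.946 in Y641F, at 1.08, 0.934 and 0.823 in A677G and at 1.84, 1.66 and 1.24 in the LOF line. All GOF replicates lay below all those of EZH2 WT and of the LOF line, and the LOF line overlapped EZH2 WT. The log2 fold change of DKK1 was -1.11 (SE 0.296, adjusted p = 0.0134) in Y641F and -0.65 (SE 0.285, adjusted p = 0.178) in A677G. The call in Y641F did not hold without replicate 1 of that line (-0.90, adjusted p = 0.0703) or without WT replicate 2 (-0.95, adjusted p = 0.106). WIF1 (chr12:65050626-65121305), a secreted WNT inhibitor, had between 2 and 39 counts per sample. It stood at 0.974, 0.569 and 0.422 CPM in EZH2 WT, at 0.238, 0.105 and 0.0473 in Y641F, at 0.292, 0.541 and 0.329 in A677G and at 1.06, 0.509 and 0.186 in the LOF line. Y641F lay below EZH2 WT, while the other lines overlapped it and the LOF replicates spread widely. For WIF1 the log2 fold change was -2.31 (SE 0.558, adjusted p = 0.00574) in Y641F and -0.76 (SE 0.464, adjusted p = 0.377) in A677G, and the call in Y641F did not hold without WT replicate 1 (-1.91, adjusted p = 0.0765). Without replicate 1 of Y641F it was -3.09 (adjusted p = 0.00240).

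The other antagonists did not pass edgeR's quasi-likelihood test against EZH2 WT. APCDD1, a membrane protein that binds WNT ligands and LRP5, stood at 2.49, 2.46 and 2.93 CPM in EZH2 WT, at 1.52, 1.58 and 1.87 in Y641F and at 2.31, 1.87 and 1.18 in A677G, with log2 fold changes of -0.66 (SE 0.225, adjusted p = 0.0655) and -0.54 (SE 0.223, adjusted p = 0.145). Its replicates in both GOF lines lay below EZH2 WT, and in Y641F it passed by edgeR's exact test (adjusted p = 0.0311), which brought the lower members there to 12, and without replicate 3 of A677G (adjusted p = 0.0485). DKK3, a Dickkopf relative, had log2 fold changes of -0.19 in Y641F and -0.53 in A677G, with replicates that overlapped EZH2 WT.

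**Figure D3:**
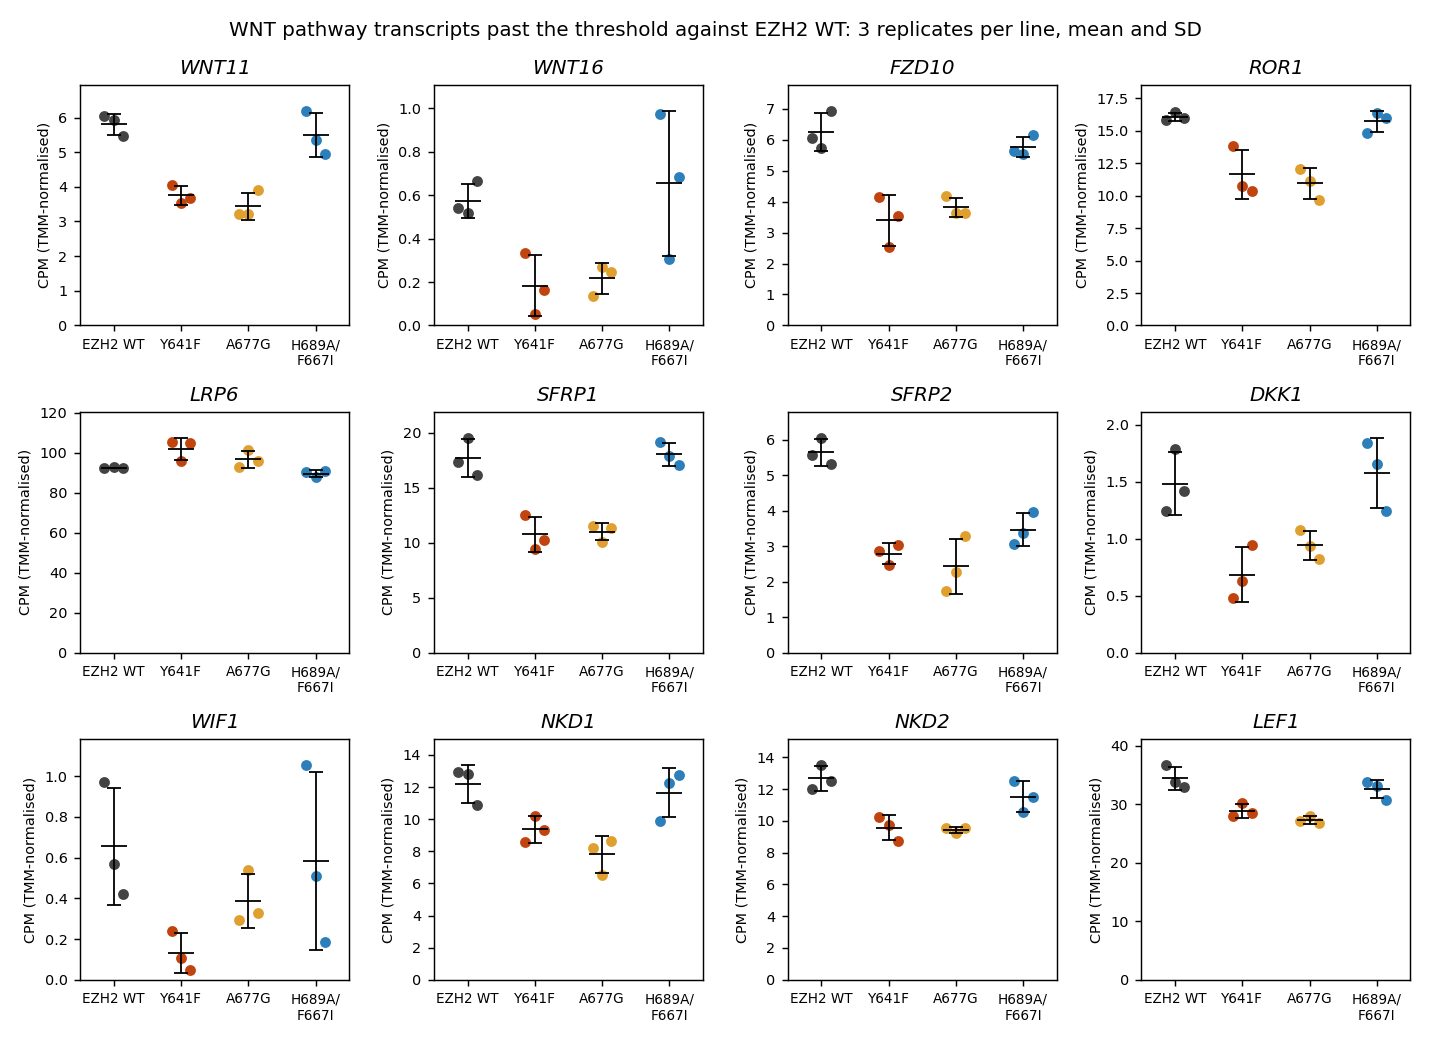
TMM-normalised CPM of the 12 members past the threshold against EZH2 WT in at least 1 line, with 1 point per replicate (3 per line) and the mean with its SD as a bar. For SFRP1, DKK1, FZD10, ROR1, WNT11, NKD2 and LEF1 each GOF replicate lies below each WT and LOF replicate. LRP6 is the one gene that is higher in Y641F.

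Of the 11 ligands with a row, 2 were lower in Y641F and 1 in A677G. WNT11 (chr11:76186325-76210736), a ligand known from signalling in cell movement and from the budding kidney duct, stood at 6.03, 5.93 and 5.46 CPM in EZH2 WT, at 4.07, 3.52 and 3.69 in Y641F, at 3.21, 3.22 and 3.89 in A677G and at 6.20, 5.35 and 4.93 in the LOF line. The GOF replicates lay below all others. The log2 fold change of WNT11 was -0.63 (SE 0.141, adjusted p = 0.00275) in Y641F and -0.76 (SE 0.143, adjusted p = 2.76e-04) in A677G, to 0.647 and 0.590 times the WT level, and -0.08 (adjusted p = 0.920) in the LOF line.

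WNT16 (chr7:121325367-121341104), a ligand known from bone and blood development, had only 2 to 36 counts per sample. It stood at 0.541, 0.518 and 0.664 CPM in EZH2 WT, at 0.333, 0.0525 and 0.166 in Y641F, at 0.135, 0.270 and 0.247 in A677G and at 0.974, 0.306 and 0.683 in the LOF line. Both GOF lines lay below EZH2 WT, and the lowest LOF replicate overlapped Y641F. For WNT16 the log2 fold change was -1.60 (SE 0.498, adjusted p = 0.0403) in Y641F and -1.40 (SE 0.488, adjusted p = 0.0690) in A677G. Both values lay close to the threshold. The call in Y641F did not hold by DESeq2 (adjusted p = 0.0503), with library totals alone (adjusted p = 0.0510) or when any of 5 single libraries was left out (adjusted p from 0.0850 to 0.167), namely any WT replicate or replicate 2 or 3 of Y641F, while without replicate 1 of Y641F the value was -2.32 (adjusted p = 0.00958). In A677G, WNT16 passed by edgeR's exact test (adjusted p = 0.0181), with a fit of the compared groups alone (adjusted p = 0.0296) and without replicate 1 of Y641F (adjusted p = 0.0480).

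The other 9 ligands did not pass the test in any line, with log2 fold changes of -0.57 to -0.04 in Y641F, -0.42 to 0.32 in A677G and -0.48 to 0.67 in the LOF line. WNT5A, the most abundant of them, stood at 47.9, 50.2 and 47.2 CPM in EZH2 WT, at 47.6, 46.1 and 47.7 in Y641F and at 50.2, 49.3 and 54.2 in A677G, with log2 fold changes of -0.04 (SE 0.0508) and 0.08 (SE 0.0506). WNT2B, the lowest per kb, had between 20 and 58 counts per sample and log2 fold changes of -0.17 in Y641F and -0.42 in A677G. By counts, WNT4 (5 to 29 per sample), WNT3A, WNT8B and WNT9A were lower. PORCN had log2 fold changes of 0.19 (SE 0.116, adjusted p = 0.413) in Y641F and 0.12 (SE 0.117, adjusted p = 0.623) in A677G. Its Y641F replicates, at 7.35, 7.38 and 7.35 CPM, lay above those of EZH2 WT at 6.36, 6.78 and 6.24.

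Of the 15 receptors and co-receptors, 2 were lower in both GOF lines and 1 was higher in Y641F. FZD10 (chr12:130162459-130165740), a Frizzled receptor, stood at 6.06, 5.75 and 6.94 CPM in EZH2 WT, at 4.16, 2.52 and 3.52 in Y641F, at 4.17, 3.64 and 3.65 in A677G and at 5.63, 5.53 and 6.14 in the LOF line. ROR1 (chr1:63774017-64181498), a tyrosine-kinase-like receptor for WNT5A whose promoter is shown above, stood at 15.8, 16.4 and 16.0 CPM in EZH2 WT, at 13.8, 10.7 and 10.4 in Y641F, at 12.03, 11.1 and 9.71 in A677G and at 14.8, 16.4 and 16.0 in the LOF line. In both genes the GOF replicates lay below all others, and replicate 1 of Y641F was the highest of its line.

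The log2 fold change of FZD10 was -0.87 (SE 0.152, adjusted p = 1.17e-04) in Y641F and -0.70 (SE 0.150, adjusted p = 0.00131) in A677G, and -1.04 (adjusted p = 1.30e-05) in Y641F without its replicate 1. That of ROR1 was -0.46 (SE 0.0969, adjusted p = 0.00125) in Y641F, -0.61 (adjusted p = 1.91e-05) there without replicate 1, and -0.55 (SE 0.0975, adjusted p = 1.33e-04) in A677G. In the LOF line the values were -0.12 (adjusted p = 0.886) and -0.03 (adjusted p = 0.959).

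LRP6 (chr12:12116025-12267044), the co-receptor that DKK1 blocks, stood at 92.3, 92.5 and 92.2 CPM in EZH2 WT, at 105, 95.6 and 105 in Y641F, at 92.8, 101 and 95.7 in A677G and at 90.2, 87.6 and 90.6 in the LOF line. Both GOF lines lay above EZH2 WT, by small amounts, and the LOF line below it. For LRP6 the log2 fold change was 0.14 (SE 0.0432, adjusted p = 0.0337) in Y641F, to 1.10 times the WT level, 0.06 (SE 0.0433, adjusted p = 0.445) in A677G and -0.05 (SE 0.0437, adjusted p = 0.839) in the LOF line. The call did not hold with upper-quartile factors (adjusted p = 0.0634), with the trend of counts on GC content removed (adjusted p = 0.0665) or without any 1 of 5 libraries, namely any WT replicate or replicate 1 or 3 of Y641F (adjusted p from 0.0792 to 0.129).

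The 12 receptors left had log2 fold changes of -0.18 to 0.07 in Y641F, -0.15 to 0.06 in A677G and -0.14 to 0.13 in the LOF line, and none passed the test. RYK was the highest of these per kb, with log2 fold changes of -0.03 and 0.02 in the GOF lines, and FZD2 the lowest, with 0.03 and 0.06. FZD1, at 23.2, 20.6 and 22.4 CPM in EZH2 WT and 19.3, 19.5 and 19.8 in Y641F, did not overlap between these lines (log2 fold change -0.17, SE 0.0693, adjusted p = 0.138). FZD7, at 42.2, 40.0 and 44.3 CPM in EZH2 WT and 39.6, 38.8 and 38.9 in A677G, did not overlap either (log2 fold change -0.11, SE 0.0519, adjusted p = 0.227).

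Of the 5 feedback genes, NKD1 and NKD2, which bind Dishevelled and dampen the signal, were lower in both GOF lines. NKD1 (chr16:50548396-50649249) stood at 13.0, 12.8 and 10.9 CPM in EZH2 WT, at 8.56, 10.2 and 9.32 in Y641F, at 8.23, 6.51 and 8.67 in A677G and at 9.90, 12.2 and 12.8 in the LOF line. NKD2 (chr5:1008802-1038943), on another chromosome, stood at 12.02, 13.5 and 12.5 CPM in EZH2 WT, at 10.2, 9.77 and 8.70 in Y641F, at 9.54, 9.22 and 9.54 in A677G and at 12.5, 10.5 and 11.5 in the LOF line. For both genes the GOF replicates lay below EZH2 WT and the LOF line overlapped it. In NKD2 the GOF replicates also lay below those of the LOF line.

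The log2 fold change of NKD1 was -0.39 (SE 0.112, adjusted p = 0.0246) in Y641F and -0.65 (SE 0.114, adjusted p = 1.13e-04) in A677G. That of NKD2 was -0.41 (SE 0.0964, adjusted p = 0.00489) in Y641F and -0.43 (SE 0.0966, adjusted p = 0.00258) in A677G. In Y641F, NKD1 no longer passed without replicate 1 of that line (-0.32, adjusted p = 0.0863), without its replicate 3 (-0.38, adjusted p = 0.0659) or without WT replicate 1 (-0.34, adjusted p = 0.129) or 2 (-0.35, adjusted p = 0.123). NKD2 no longer passed there without WT replicate 2 (-0.35, adjusted p = 0.0520).

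The other feedback genes did not pass. AXIN2, a scaffold of the destruction complex and the target gene most often read as a measure of β-catenin activity, stood at 8.69, 7.999 and 8.24 CPM in EZH2 WT, at 9.34, 6.96 and 10.0 in Y641F, at 8.68, 9.22 and 9.08 in A677G and at 8.06, 7.64 and 6.83 in the LOF line. AXIN2 had a log2 fold change of 0.08 (SE 0.116, adjusted p = 0.772) in Y641F and 0.11 (SE 0.116, adjusted p = 0.656) in A677G. RNF43 and ZNRF3, membrane ubiquitin ligases that remove Frizzled receptors, had values of -0.09 (SE 0.0979) and 0.02 (SE 0.0510) in Y641F, and -0.02 (SE 0.0976) and 0.02 (SE 0.0510) in A677G.

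The 3 members of the destruction complex, all abundant, had log2 fold changes of -0.04 to 0.11 in Y641F, 0.02 to 0.04 in A677G and -0.03 to 0.05 in the LOF line. CTNNB1 stood at 813, 809 and 823 CPM in EZH2 WT, at 776, 811 and 784 in Y641F and at 826, 831 and 826 in A677G, where all replicates lay above EZH2 WT (log2 fold change 0.02, SE 0.0318, adjusted p = 0.772). APC, at 111, 102 and 109 CPM in EZH2 WT and 119, 115 and 115 in Y641F, did not overlap between these lines (log2 fold change 0.11, SE 0.0403, adjusted p = 0.0801). AXIN1 had 0.01 (SE 0.0458) in Y641F and 0.04 (SE 0.0458) in A677G.

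Of the 4 factors that act with β-catenin on DNA, LEF1 was lower in both GOF lines. LEF1 (chr4:108047545-108168956) stood at 36.7, 33.8 and 32.9 CPM in EZH2 WT, at 28.0, 30.3 and 28.5 in Y641F, at 27.2, 28.1 and 26.8 in A677G and at 33.9, 33.1 and 30.8 in the LOF line. The GOF replicates lay below all others. For LEF1 the log2 fold change was -0.25 (SE 0.0606, adjusted p = 0.00502) in Y641F, to 0.838 times the WT level, and -0.33 (SE 0.0609, adjusted p = 1.94e-04) in A677G. The call in Y641F did not hold without WT replicate 1 (-0.21, adjusted p = 0.0669). TCF7, TCF7L1 and TCF7L2 had log2 fold changes between -0.24 and 0.16 in the GOF lines and did not pass. TCF7L2, at 7.96, 7.84 and 7.30 CPM in EZH2 WT and 8.59, 8.60 and 8.69 in A677G, did not overlap between these lines (log2 fold change 0.16, SE 0.119, adjusted p = 0.495).

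Of the 12 members past the threshold, 8 overlap an annotated gene on the opposite strand (DKK1, LEF1, LRP6, NKD1, ROR1, SFRP1, WIF1 and WNT11), of which none has a row in the table. Members that did not pass have such overlaps too, among them CTNNB1 with ULK4 and DKK3 with USP47, which do have rows. The libraries came from a stranded kit, and whether counting used the strand is not given in the sources used here.

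The GOF lines were compared with each other directly, because 4 members (DKK1, WIF1, WNT16 and LRP6) passed against EZH2 WT in Y641F and not in A677G. None of the 45 members differed between Y641F and A677G by edgeR's quasi-likelihood test, where 0.0841% of all genes did. An unadjusted p under 0.05 was seen in 6 members (13.3%), and the share of all genes at that cutoff was not counted. By edgeR's exact test and by DESeq2 the count was also 0. The log2 difference of Y641F from A677G was -0.47 (SE 0.307, adjusted p = 0.828) in DKK1, -1.54 (SE 0.597, adjusted p = 0.596) in WIF1, -0.20 (SE 0.577, adjusted p = 0.967) in WNT16 and 0.08 (SE 0.0429, adjusted p = 0.775) in LRP6. These members are therefore not shown to be particular to Y641F.

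The mean of the GOF lines was then compared with the LOF line, a contrast that does not use the levels in EZH2 WT, although those samples enter the estimate of spread. The antagonists SFRP1, APCDD1, DKK1 and WIF1, both NKD genes, 4 receptors, LEF1 and 3 ligands were lower in the GOF lines, and LRP6 was higher. In all, 14 members (31.1%) were lower and 1 (2.22%) was higher, where 8.75% of all genes tested were lower and 3.81% higher. Without replicate 1 of the LOF line, the number of lower members was 7. The median log2 difference over the members was -0.06, against 0.00 over all genes.

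By role, 4 of 6 antagonists, 2 of 5 feedback genes, 4 of 15 receptors, 1 of 4 TCF/LEF factors and 3 of 11 ligands were lower. SFRP1 had a log2 difference of -0.73 (SE 0.0812, adjusted p = 2.20e-08), ROR1 of -0.48 (SE 0.0833, adjusted p = 6.64e-05) and FZD10 of -0.67 (SE 0.129, adjusted p = 2.50e-04). WNT5B, a ligand close in sequence to WNT5A, passed here (-0.62, SE 0.120, adjusted p = 2.96e-04) and, with all replicates, in no comparison with EZH2 WT. It stood at 4.52, 4.20 and 4.07 CPM in Y641F, at 5.16, 4.67 and 4.69 in A677G and at 6.60, 6.93 and 7.39 in the LOF line, while its EZH2 WT replicates spread over that range, at 6.90, 5.25 and 4.31. Without WT replicate 3 it also passed in Y641F against EZH2 WT (-0.51, adjusted p = 0.0317). APCDD1, FZD1 and FZD7 likewise passed here (-0.63, -0.24 and -0.13) without passing against EZH2 WT, but APCDD1 did not hold without any 1 of 3 libraries and FZD7 did not without any 1 of 9.

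Other genes of the pathway were counted from 5 lists with 97 entries, of which 82 genes were tested. In Y641F 10 of them were lower and 1 higher, where 5.59% of all genes tested were lower and 2.09% higher. In A677G 12 were lower and 2 higher, where 6.48% and 2.07% of all genes were, and in the LOF line 1 was lower and 1 higher, where 0.161% and 0.14% were. None of the 15 nuclear cofactors of β-catenin that were tested, such as the BCL9 and TLE proteins, passed in any line. Of 15 partners of the destruction complex, CSNK1E, a casein kinase, was lower in A677G (log2 fold change -0.99) and in the LOF line (-1.06).

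Of 18 tested genes widely used as β-catenin targets, 5 were lower in Y641F, 4 were lower in A677G and 1 was higher in the LOF line, to be read against those same shares of all genes. LGR5, a receptor for R-spondins that marks stem cells, stood at 9.25, 9.40 and 9.56 CPM in EZH2 WT, at 5.18, 3.62 and 3.97 in Y641F, at 6.93, 5.82 and 5.65 in A677G and at 7.52, 7.79 and 8.75 in the LOF line, so that all mutant replicates lay below EZH2 WT. LGR5 had log2 fold changes of -1.14 in Y641F and -0.61 in A677G. The direct difference of Y641F from A677G in LGR5 did not pass by the quasi-likelihood test. It passed by edgeR's exact test (-0.53, adjusted p = 0.0426) and without replicate 1 of Y641F (-0.69, adjusted p = 0.0160). Against EZH2 WT, EPHB2, an ephrin receptor, had -0.46 and -0.45 in these lines, and CCND2, a D-type cyclin, had -0.16 in both. CD44 (-1.94, from as few as 2 counts per sample) and the Notch ligand JAG1 (-0.35) were lower in Y641F, and MYC (-0.19) in A677G. In the LOF line MYC did not pass in the main fit but passed with a fit of the compared groups alone (-0.17, adjusted p = 0.0473). CCND1, a cyclin, was higher in the LOF line (0.18).

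Of 16 tested cofactors of ligand secretion and binding at the cell surface, LGR5 among them, the glypican GPC4 (-0.47 in Y641F and -0.53 in A677G) and TPBG (-0.33 in both), a membrane protein known to inhibit LRP6 signalling, were lower in both GOF lines, and the glypican GPC3 was higher in both (0.24 and 0.22). In the LOF line GPC3 had a log2 fold change of 0.23 (SE 0.0580, adjusted p = 0.0815), with all replicates above EZH2 WT, and passed by edgeR's exact test (adjusted p = 0.0322) and by DESeq2 (adjusted p = 0.0401). ADGRA2, a co-receptor of WNT7 ligands, was lower (-0.22) and GPC6 higher (0.21) in A677G. Of 19 tested genes of planar polarity and signalling without β-catenin, VANGL2, a core polarity protein, was lower in both GOF lines (-0.62 in Y641F and -0.56 in A677G), as were DAAM2 (-0.44 and -0.51), a formin, and DACT1 (-0.41 and -0.28), a binding partner of Dishevelled. PRICKLE2, another polarity protein, was lower in A677G (-0.93).

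Several of these calls turned on single libraries. In Y641F, those of CCND2, CD44 and JAG1 did not hold when 1 of some libraries was left out (adjusted p of up to 0.0598, 0.0597 and 0.171). With all libraries kept, JAG1 in Y641F did not pass with library totals (adjusted p = 0.0558) or with a fit of the compared groups alone (adjusted p = 0.0540). Without replicate 1 of Y641F, CD44 was at -3.17 there (adjusted p = 3.57e-04), and PRICKLE2 (-1.14, adjusted p = 0.00523) and ADGRA2 (-0.26, adjusted p = 0.0189) passed too. In A677G the same held for CCND2 without WT replicate 1 (adjusted p = 0.0506) and for DACT1, PRICKLE2, ADGRA2, GPC3, GPC6 and MYC, with adjusted p of up to 0.207, 0.196, 0.186, 0.115, 0.0776 and 0.0808. In the LOF line CCND1 did not hold without any 1 of 8 libraries (adjusted p from 0.0613 to 0.272), nor CSNK1E without any 1 of 3 (adjusted p from 0.0960 to 0.273). By DESeq2, CSNK1E passed neither in A677G (adjusted p = 0.101) nor in the LOF line (adjusted p = 0.325).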

How the data were processed

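RNA-Seq was run on 12 samples, 3 of each EZH2 line. According to the study's methods and the submitters' processing notes, reads were trimmed with Trim Galore 0.6.5, aligned to GRCh38 with STAR 2.7.9a and quantified with Salmon 1.2.0, and the study tested with edgeR 3.16. The authors deposited whole, raw counts for each gene symbol, and the step from Salmon's estimates to whole counts, the filter of the table and any batch are not given in the sources used here.

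Counts were tested in R 4.3.3 with edgeR 4.0.16 (TMM factors, quasi-likelihood test, 1 coefficient per line, all samples in 1 fit). Left out were 175 genes at 0 in all replicates of A677G or the LOF line, none of them a member, which left 14263, and filterByExpr removed 0. Adjusted p-values are Benjamini-Hochberg values over these genes, with a threshold of 0.05. CPM are TMM-normalised, and log2 CPM for principal components used a prior count of 2. The replicates are labelled as separate samples, and none agreed within sampling noise. The mean chi-square per gene between replicate pairs, a measure of spread against sampling noise, was 10.3 to 14.8 in Y641F. In the other lines it was 3.33 to 7.09. The fit shares 1 estimate of spread per gene over all lines, so that SEs and p-values in Y641F draw on the tighter lines too. P-values measure the spread between replicates only. Each member past the threshold against EZH2 WT has its values in all samples given, as has each that did not overlap EZH2 WT in a GOF line for the lines concerned, and the others are given by role with the highest and the lowest. The members, roles, lists and tests were chosen with earlier results of these data known. Alternatives were edgeR's exact test, DESeq2 1.42.0, library totals, upper-quartile factors and a fit of the compared groups alone. Another used no filter and kept the 175 genes at 0. Others were a minimum of 10 counts in each sample, the replicate number as a block, the GC trend removed, and each replicate left out. Equal replicate numbers did not pair the samples. Levels of markers of other cell types are not reported here. Data were also simulated for 14263 genes with 1 spread per gene shared by all lines. In Y641F 200 genes, drawn at any level, were changed. Of these, 91% of 2-fold and 76% of 1.5-fold changes were recovered against EZH2 WT, with 8 false calls. The real Y641F replicates spread more than those of the other lines. These shares therefore need not hold for the real Y641F line or for members with few counts.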

Additional observations from a re-analysis of the deposited data

Results flagged for a closer look

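The members below differed between the mean of the GOF lines and the LOF line by edgeR's quasi-likelihood test of that difference itself, with 1 line for each mutant. Values are log2 differences, negative where the GOF lines were lower. Among the antagonists, SFRP1 had -0.73 (SE 0.0812), APCDD1 -0.63 (SE 0.191), DKK1 -0.97 (SE 0.244) and WIF1 -1.38 (SE 0.438). Among the ligands, WNT11 had -0.61 (SE 0.122), WNT16 -1.68 (SE 0.405) and WNT5B -0.62 (SE 0.120). Among the receptors, FZD10 had -0.67 (SE 0.129), ROR1 -0.48 (SE 0.0833), FZD1 -0.24 (SE 0.0594), FZD7 -0.13 (SE 0.0448) and LRP6 0.15 (SE 0.0378). The feedback genes NKD1 and NKD2 had -0.44 (SE 0.0968) and -0.28 (SE 0.0837), and the factor LEF1 had -0.21 (SE 0.0526). Their adjusted p-values in edgeR ran from 2.20e-08 (SFRP1) to 0.0449 (FZD7). Without replicate 1 of the LOF line, 7 of the lower members no longer passed: APCDD1 (-0.56, adjusted p = 0.138), DKK1 (-0.85, adjusted p = 0.0594), LEF1 (-0.18, adjusted p = 0.0556), FZD7 (-0.13, adjusted p = 0.150), NKD2 (-0.21, adjusted p = 0.212), WIF1 (-0.66, adjusted p = 0.552) and WNT16 (-1.25, adjusted p = 0.112). WIF1 no longer passed either when any 1 of 5 other libraries was left out, and NKD2 when any 1 of 2 others was. APCDD1 no longer passed without replicate 3 of A677G (adjusted p = 0.0615) or of the LOF line (adjusted p = 0.143), and FZD7 no longer passed without any 1 of 9 libraries (adjusted p from 0.0536 to 0.150), with library totals (adjusted p = 0.0866) or with the GC trend removed (adjusted p = 0.0509).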

How the results depend on the processing

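No fold change that passed the test, of a member or of another pathway gene named above, changed sign under any alternative run. The count of higher members in Y641F, 1 (LRP6), was 0 with upper-quartile factors, with a fit of the compared groups alone and with the GC trend removed, with or without the replicate block. The count of lower members in the LOF line, 0, was 1 (SFRP2) by the exact test, by DESeq2, with no filter, with a fit of the compared groups alone and with the GC trend removed with the replicate block. The count of lower members in A677G, 8, was 9 by the exact test and with the compared groups alone, and 8 in the other alternatives that kept all replicates. At least 10 counts in every sample left out WIF1, WNT16, WNT3A and WNT4. The exact test was not run for the mean of the GOF lines. Genes called in the LOF line, 43 in all, were 76 by the exact test, 169 with no filter and 86 with the compared groups alone. With library totals they were 20 lower and 11 higher, against 23 and 20. Genes called between Y641F and A677G, 12 in all, were 23 by the exact test, 19 by DESeq2, 178 with no filter and 19 with the GC trend removed with the replicate block. Since filterByExpr removed 0 genes, the run with no filter differed from the main fit in keeping the 175 genes at 0. Of these, 134 were at 0 in all replicates of A677G, 100 in all of the LOF line and 59 in both. Which genes made up the added calls was not counted. The cause of these moves was not tested.

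Leaving out 1 replicate each gave, for lower and higher members, 7 to 12 and 0 to 1 in Y641F, 8 to 9 and 0 in A677G, 0 to 1 and 0 in the LOF line, 0 and 0 between Y641F and A677G, and 7 to 14 and 1 to 2 for the mean of the GOF lines against the LOF line. Genes called in all were 703 to 1232 in Y641F (703 without WT replicate 2), 825 to 1457 in A677G, 11 to 65 in the LOF line (11 without its replicate 1), 8 to 57 between Y641F and A677G (57 without replicate 2 of Y641F) and 1203 to 2105 for the mean of the GOF lines against the LOF line.

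Replicate numbers did not pair the samples: the 18 pairs with the same number correlated between -0.0557 and 0.0501, and 2 of 12 samples correlated best with their own number. With the replicate block, genes called were 1108 in Y641F, against 1095, 1238 in A677G, against 1219, and 40 in the LOF line, against 43, and it changed no call of a member. Of the other pathway genes named, CCND1 in the LOF line no longer passed with it (0.18, adjusted p = 0.0525). WIF1 and WNT16, with as few as 2 counts per sample, are the members that depth limits most.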
